A study of Mus musculus with 24 samples.

Results

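The cholesterol group comprises 31 genes listed by symbol, of 45792 genes in the count table, and all 31 were among the 16777 genes that passed the filter on low counts. The list holds 8 enzymes of the mevalonate and isoprenoid steps, 11 enzymes that take squalene to cholesterol, 5 genes of SREBP control and 7 genes of sterol-regulated uptake, transport and export. Messenger RNA was sequenced from primary cortical neurons taken from mouse embryos at E16.5 and grown for 12 days. The H2BE-KO/mCherry-KI neurons (KO) carry, by their label, a knockout of the histone variant H2BE and a knock-in of the fluorescent protein mCherry, and they are compared with wild-type neurons (WT). KO and WT neurons were each left as control or given BDNF, brain-derived neurotrophic factor, for 30 min or for 24 h, and each of these 6 groups has 4 libraries, which the submitters call biological replicates. By the culture codes in the library descriptions, the control, 30 min and 24 h libraries of 1 replicate come from 1 culture, which the data go against for KO replicate 4. The labels do not say whether the deletion is confined to some cell types.

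Neurons and glia make cholesterol themselves because lipoproteins of the blood do not cross into the brain, and in the adult brain much of it is made by astrocytes. Acetyl-CoA is turned by way of mevalonate into isoprenoid units, these are joined into squalene, and squalene is closed into a ring and trimmed to cholesterol. SREBP-2, encoded by Srebf2, is held in the endoplasmic reticulum by its escort SCAP and the INSIG proteins while sterol is plentiful. When sterol runs low, SCAP carries it to the Golgi, where it is cut, and the released part switches on the genes of synthesis and uptake. The liver X receptors answer to oxidised sterols and switch on exporters.

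The libraries held 19780486 to 62135270 counts. Hist2h2be, the gene that encodes H2BE, had 50 to 63.1 CPM in 11 KO libraries and 21.2 CPM in the library labelled KO 24 h replicate 4, against 3.15 to 5.83 CPM in the 12 WT libraries (CPM, counts scaled to a common library size). The counts do not show whether they fall within the deleted part, so this level separates the libraries and does not check the deletion. The library labelled KO 24 h replicate 4 also goes against its culture code, with 145 CPM of Xist and 66.3 CPM of the Y-linked Ddx3y. The control and 30 min libraries of that culture had 423 and 426 CPM of Xist and 0.193 and 0.904 CPM of Ddx3y. Some results at 24 h are therefore also given without that library, and the other 24 h values of KO include it. Mitochondrially encoded genes took 4.20% to 21.7% of counts in KO and 4.18% to 6.40% in WT, and the KO libraries above 10% were the 3 of replicate 4. The 3 of KO replicate 3, at 9.34% in control, 7.52% at 30 min and 9.26% at 24 h, also lay above the WT range. Genes detected were 18188 and 17926 in KO replicate 4 in control and at 30 min, and 15323 in KO 30 min replicate 3. The lowest WT library had 19726. Neuron markers summed to 7490 to 9034 CPM in KO and 6976 to 8317 CPM in WT, of which Slc17a7, Neurod6, Tbr1, Rbfox3 and Tubb3 were lower in KO control than in WT control, and Gad1, Gad2 and Syp were higher. Mean levels in KO and WT control were 33.27 and 122.9 CPM for Tbr1, 123.8 and 227.1 for Neurod6 and 228.4 and 381.2 for Slc17a7. They were 1073.7 and 526 CPM for Gad1 and 525.4 and 229.7 for Gad2. The part of these neuron markers in the sterol results was not tested. Summed levels of microglial markers reached at most 6.35 CPM in any library. The 10 oligodendrocyte lineage markers summed to 29.7 to 68.78 CPM in KO and 47.99 to 97.47 CPM in WT, mostly through Mbp, which reached 75.55 CPM, while Sox10 and Mag stayed at or below 0.116 and 0.29 CPM. Of these 10, Mog was lower in KO than in WT in each condition and Mbp at 24 h, and their part in the sterol results was not tested.

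In KO control neurons most genes of cholesterol synthesis stood at a lower level than in WT control neurons. Of the 31 sterol genes, 21 were lower (67.7%, where 10.1% of all genes tested were lower) and 2 were higher (6.45%, where 11.3% of all genes were higher). The genes were listed with earlier results of these data known, so the shares here and below describe the list and do not test it. The 2 higher genes were Insig2 and Nr1h2, which encode a retention protein of SREBP and a liver X receptor. The median log2 fold change of the 31 genes, KO over WT, was -0.79, against a median of 0.031 over all genes tested. In 19 of the 31, all 4 KO libraries lay below all 4 WT libraries, as did 13.3% of all genes tested. Fewer cells of a type that makes these transcripts and less transcript per cell cannot be told apart in such libraries. Astrocyte markers also differed: the 10 of them summed to 237.1 to 394.9 CPM in KO control and 569.9 to 711.9 CPM in WT control, and 3 of the 10 (Glul, Slc1a2 and Aldoc) were lower in KO. Gfap, Aqp4 and Gja1 stayed at or below 5.76, 7.13 and 7.10 CPM in any library, so that most of that sum was Slc1a2, a glutamate transporter, at 248.2 CPM in KO control and 470.2 CPM in WT control. Over the 10 astrocyte markers the median log2 fold change in control was -0.89, and 9 of the 10 values were below 0. The part of the astrocyte markers and of the mitochondrial share in the sterol result was not tested. With library sizes and scaling taken from nuclear genes alone, 23 sterol genes were again past the threshold, of 3583 genes in all. That fit changes the scaling and keeps the same libraries, so it does not test the part of the mitochondrial share.

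**Figure D1:**
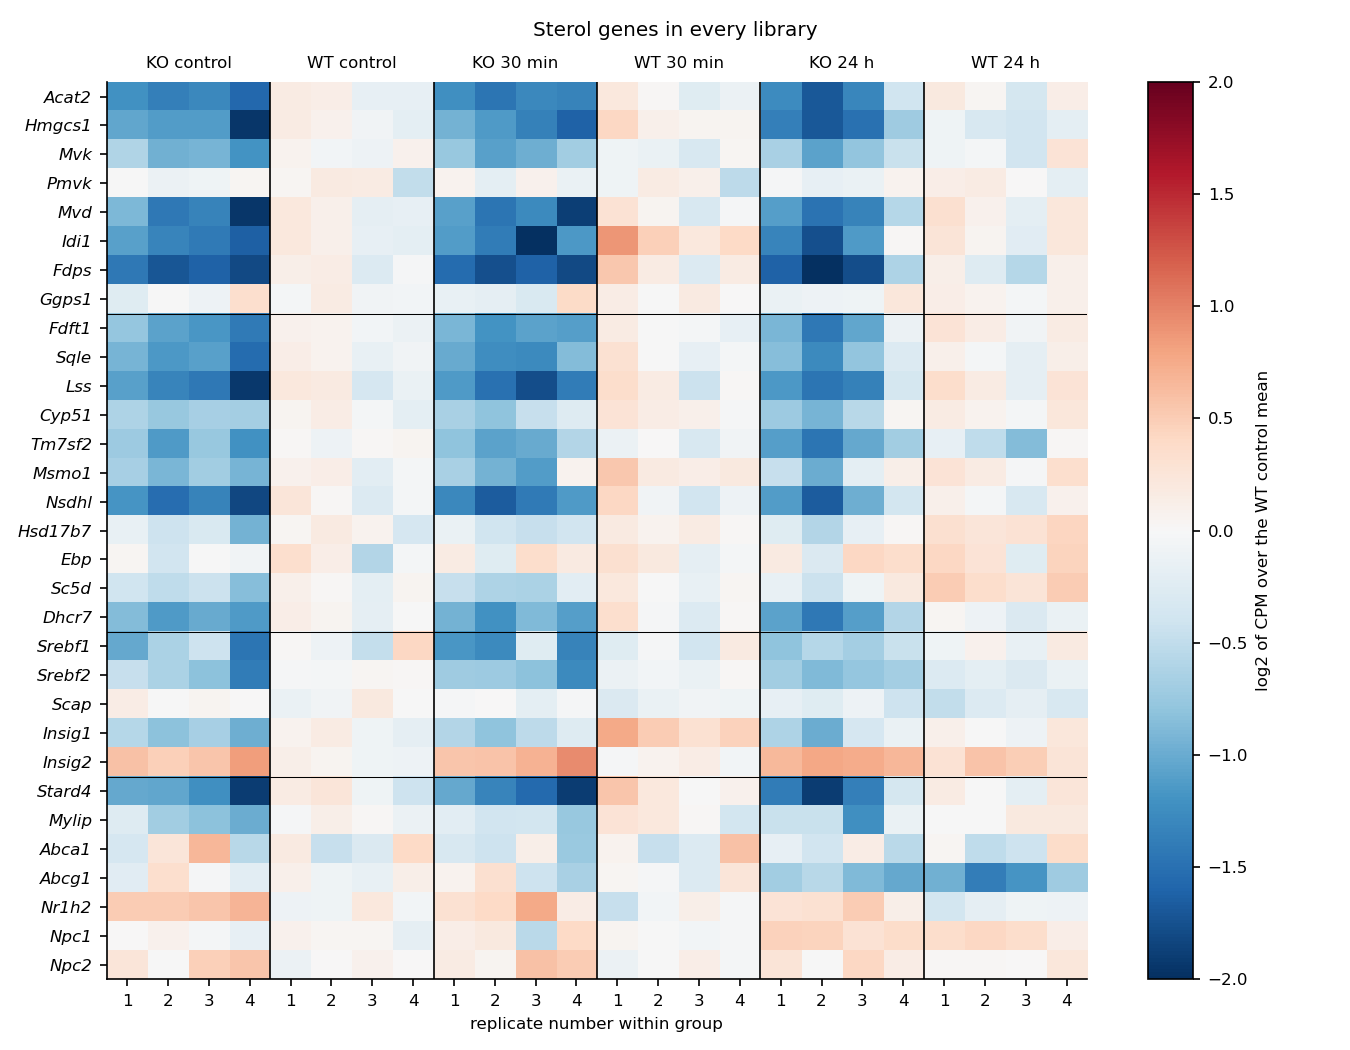
Heat map of the 31 sterol genes (rows, in the order mevalonate and isoprenoid steps, squalene to cholesterol, SREBP control, uptake and transport) in all 24 libraries (columns), as log2 of CPM over the mean of the 4 WT control libraries. The KO columns are blue over most of the synthesis rows, Insig2 and Nr1h2 are red in KO control, and the library labelled KO 24 h replicate 4 is paler than the other 3 KO 24 h libraries.

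The bases before the transcription start are shown for 4 genes that were lower in KO control and for Insig2, which was higher. They are the 250 bases before the start that RefSeq gives on GRCm38.p6, at chr13:119690101-119690350 (plus strand) for Hmgcs1, chr13:8885356-8885605 (plus strand) for Idi1, chr10:76531355-76531604 (plus strand) for Lss, chr5:28071162-28071411 (plus strand) for Insig1 and chr1:121332590-121332839 (minus strand) for the most upstream of 3 starts of Insig2. Capitals mark TCACNCCAC, a core of the sterol regulatory element, and CCAAT, the core bound by NF-Y, on either strand (ATTGG is CCAAT read on the other strand).
Hmgcs1: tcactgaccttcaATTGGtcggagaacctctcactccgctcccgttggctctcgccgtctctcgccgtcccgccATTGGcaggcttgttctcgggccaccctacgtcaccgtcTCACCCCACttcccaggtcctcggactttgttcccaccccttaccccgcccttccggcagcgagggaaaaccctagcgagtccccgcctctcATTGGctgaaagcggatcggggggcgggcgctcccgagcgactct
Idi1: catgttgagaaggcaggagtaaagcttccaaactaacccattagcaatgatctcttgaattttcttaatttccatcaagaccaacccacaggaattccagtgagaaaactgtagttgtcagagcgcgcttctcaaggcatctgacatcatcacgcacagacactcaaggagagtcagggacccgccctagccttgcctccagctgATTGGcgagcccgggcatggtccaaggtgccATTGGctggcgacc
Lss: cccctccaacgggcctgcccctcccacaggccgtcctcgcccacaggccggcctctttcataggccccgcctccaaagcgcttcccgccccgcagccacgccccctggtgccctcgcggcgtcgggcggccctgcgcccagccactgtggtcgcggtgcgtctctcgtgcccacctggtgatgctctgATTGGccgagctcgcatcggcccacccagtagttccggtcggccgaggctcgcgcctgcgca
Insig1: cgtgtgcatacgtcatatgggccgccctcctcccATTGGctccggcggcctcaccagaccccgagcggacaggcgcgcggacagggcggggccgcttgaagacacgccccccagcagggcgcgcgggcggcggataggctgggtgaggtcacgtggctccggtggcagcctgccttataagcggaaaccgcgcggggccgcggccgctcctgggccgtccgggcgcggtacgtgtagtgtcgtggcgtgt
Insig2: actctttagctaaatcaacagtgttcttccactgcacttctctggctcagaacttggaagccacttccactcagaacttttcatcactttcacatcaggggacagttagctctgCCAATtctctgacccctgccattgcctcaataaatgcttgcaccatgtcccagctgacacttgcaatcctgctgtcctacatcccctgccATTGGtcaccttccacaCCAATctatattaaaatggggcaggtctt

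RefSeq windows of 300 bases, 250 before the start and 50 after, were at hand for 25 of the 31 genes. CCAAT was present on either strand in 21 of the 25, and in 16 of the 17 with a window that were lower in KO control, against 41.1% of 27025 genes. GGGCGG, the core bound by Sp1, was present in 22 of the 25 and in all 17 of the lower ones, against 38.2% of genes. The 27025 genes are all genes with a window, including genes not among the 16777 tested here, whereas all members were tested. Among the 25, TCACNCCAC was present in Hmgcs1, and it was found in 1.44% of genes. CACGTG, an E-box, was present in 6 of the 25 (8.09% of genes), TGACGTCA, the cyclic AMP response element, in 0 (2.03% of genes), and the LXR DR4 element, searched by its spaced consensus, in 0 (0.0148% of genes). Insig2, which was higher in KO control, also held CCAAT, but only in the most upstream of its 3 windows. These matches describe letters in the windows and say nothing of binding.

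Among the enzymes of the mevalonate and isoprenoid steps, 6 of 8 were lower in KO control (median log2 fold change -1.31), and Pmvk and Ggps1 did not pass the test. The first of them in the pathway to be shown is Hmgcs1 (chr13:119690379-119708260 on mm10), which joins acetyl-CoA and acetoacetyl-CoA and had the highest level per length of the 31 genes, 143.5 CPM per kb of exon in KO control and 345.1 in WT control. Hmgcs1 in control neurons measured 768, 727, 728 and 413 CPM in KO and 1778, 1677, 1505 and 1380 CPM in WT. Hmgcs1 at 30 min measured 821, 725, 625 and 514 CPM in KO and 2111, 1706, 1649 and 1643 CPM in WT. Hmgcs1 at 24 h measured 613, 490.0, 561 and 966 CPM in KO and 1489, 1268, 1213 and 1392 CPM in WT. At each of the 3 conditions all 4 KO libraries were below all 4 WT libraries, KO control replicate 4 being the lowest of all. The log2 fold change was -1.27 ± 0.19 (adjusted p = 6.8e-05) in control, -1.40 ± 0.19 (adjusted p = 1.78e-05) at 30 min and -1.03 ± 0.19 (adjusted p = 0.00128) at 24 h. It was -1.28 ± 0.18 at 24 h without the library labelled KO 24 h replicate 4.

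Mvd (chr8:122433601-122443422), mevalonate diphosphate decarboxylase, makes the first isoprenoid unit. Mvd in control neurons measured 58.1, 40.3, 43.1 and 28.3 CPM in KO and 125, 116, 95.4 and 97.3 CPM in WT. Mvd at 30 min measured 51.1, 39.6, 44.8 and 29.3 CPM in KO and 133, 113, 86.9 and 107 CPM in WT. Mvd at 24 h measured 50.4, 38.9, 43.04 and 72.9 CPM in KO and 136, 115, 94.6 and 127 CPM in WT. The groups did not overlap in any condition, though at 24 h the library labelled KO 24 h replicate 4 reached 72.9 CPM where the other 3 KO libraries stayed at or below 50.4 CPM. Mvd was lower, with a log2 fold change of -1.35 ± 0.21 (adjusted p = 7.54e-05) in control, -1.41 ± 0.21 (adjusted p = 3.42e-05) at 30 min and -1.20 ± 0.21 (adjusted p = 0.000715) at 24 h.

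Idi1 (chr13:8885501-8892451) interconverts the isoprenoid units, and its promoter above holds CCAAT in 2 places. Idi1 in control neurons measured 17.7, 15.01, 14.1 and 12.2 CPM in KO and 43.6, 40.6, 33.6 and 32.7 CPM in WT. Idi1 at 30 min measured 17.3, 14.3, 6.7 and 17.03 CPM in KO and 69.2, 52.5, 43.7 and 49.7 CPM in WT. Idi1 at 24 h measured 15.1, 11.1, 17.2 and 38.4 CPM in KO and 45.2, 39.1, 32.3 and 43.9 CPM in WT. KO lay below WT in control and at 30 min, but at 24 h the library labelled KO 24 h replicate 4 fell among the WT values. Its log2 fold changes were -1.35 ± 0.29 (adjusted p = 0.0018) in control, -1.95 ± 0.30 (adjusted p = 4.24e-05) at 30 min and -0.97 ± 0.29 (adjusted p = 0.0264) at 24 h, and -1.48 ± 0.24 at 24 h without that library. The 24 h call was lost in 7 of 34 alternative analyses, among them those without WT 24 h replicate 1 (-0.92) or 4 (-0.95), or without KO 24 h replicate 1 (-0.87), 2 (-0.78) or 3 (-0.90). Of the stretches of 50 bases in Idi1 exons, 25.3% also occur in other genes, mainly the predicted gene Gm13502 and an antisense gene.

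Fdps (chr3:89093588-89101959), farnesyl diphosphate synthase, had the largest fall among the 31 genes in control neurons. Fdps in control neurons measured 13.2, 10.8, 11.5 and 10.1 CPM in KO and 38.3, 39.02, 29.2 and 35 CPM in WT. Fdps at 30 min measured 12.2, 10.4, 11.6 and 10.2 CPM in KO and 51.4, 39.5, 29.3 and 39.7 CPM in WT. Fdps at 24 h measured 11.6, 7.13, 10.4 and 23.1 CPM in KO and 38.3, 29.6, 23.9 and 37.97 CPM in WT. KO control was at 32.2% of WT control, and the groups stood apart in every condition. The log2 fold change was -1.63 ± 0.25 (adjusted p = 5.95e-05) in control, -1.85 ± 0.25 (adjusted p = 1.29e-05) at 30 min and -1.31 ± 0.24 (adjusted p = 0.00118) at 24 h, and -1.75 ± 0.20 at 24 h without the library labelled KO 24 h replicate 4. Fdps is uncertain in part, since 26.7% of its exon bases lie in the predicted gene Gm43738 on the same strand and 26.2% of its 50-base stretches occur elsewhere.

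Acat2, which makes acetoacetyl-CoA, averaged 74.96 ± 7.71 CPM in KO control and 192 ± 24.5 CPM in WT control (SD, n = 4 each), a log2 fold change of -1.35 ± 0.19 (adjusted p = 2.52e-05), but 39.1% of its 50-base stretches also occur in the neighbouring Acat3 or in Tcp1, read antisense. Mvk, mevalonate kinase, averaged 32.7 ± 5.63 CPM in KO control and 61.4 ± 3.86 CPM in WT control, a log2 fold change of -0.91 ± 0.14 (adjusted p = 9.06e-05). At 30 min and 24 h both were again lower, at -1.30 ± 0.19 and -1.09 ± 0.19 for Acat2 and -0.75 ± 0.14 and -0.68 ± 0.14 for Mvk. Pmvk, which acts between Mvk and Mvd, differed by -0.04 ± 0.14 (95% interval -0.32 to 0.24). Ggps1, which makes geranylgeranyl diphosphate for prenylation rather than for sterol, differed by 0.01 ± 0.13 (95% interval -0.26 to 0.28). Neither passed the test in any of the 3 conditions. Ggps1 at 30 min passed in 2 of 34 alternative analyses, over which the adjusted p ran from 0.0415 to 0.851.

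**Figure D2:**
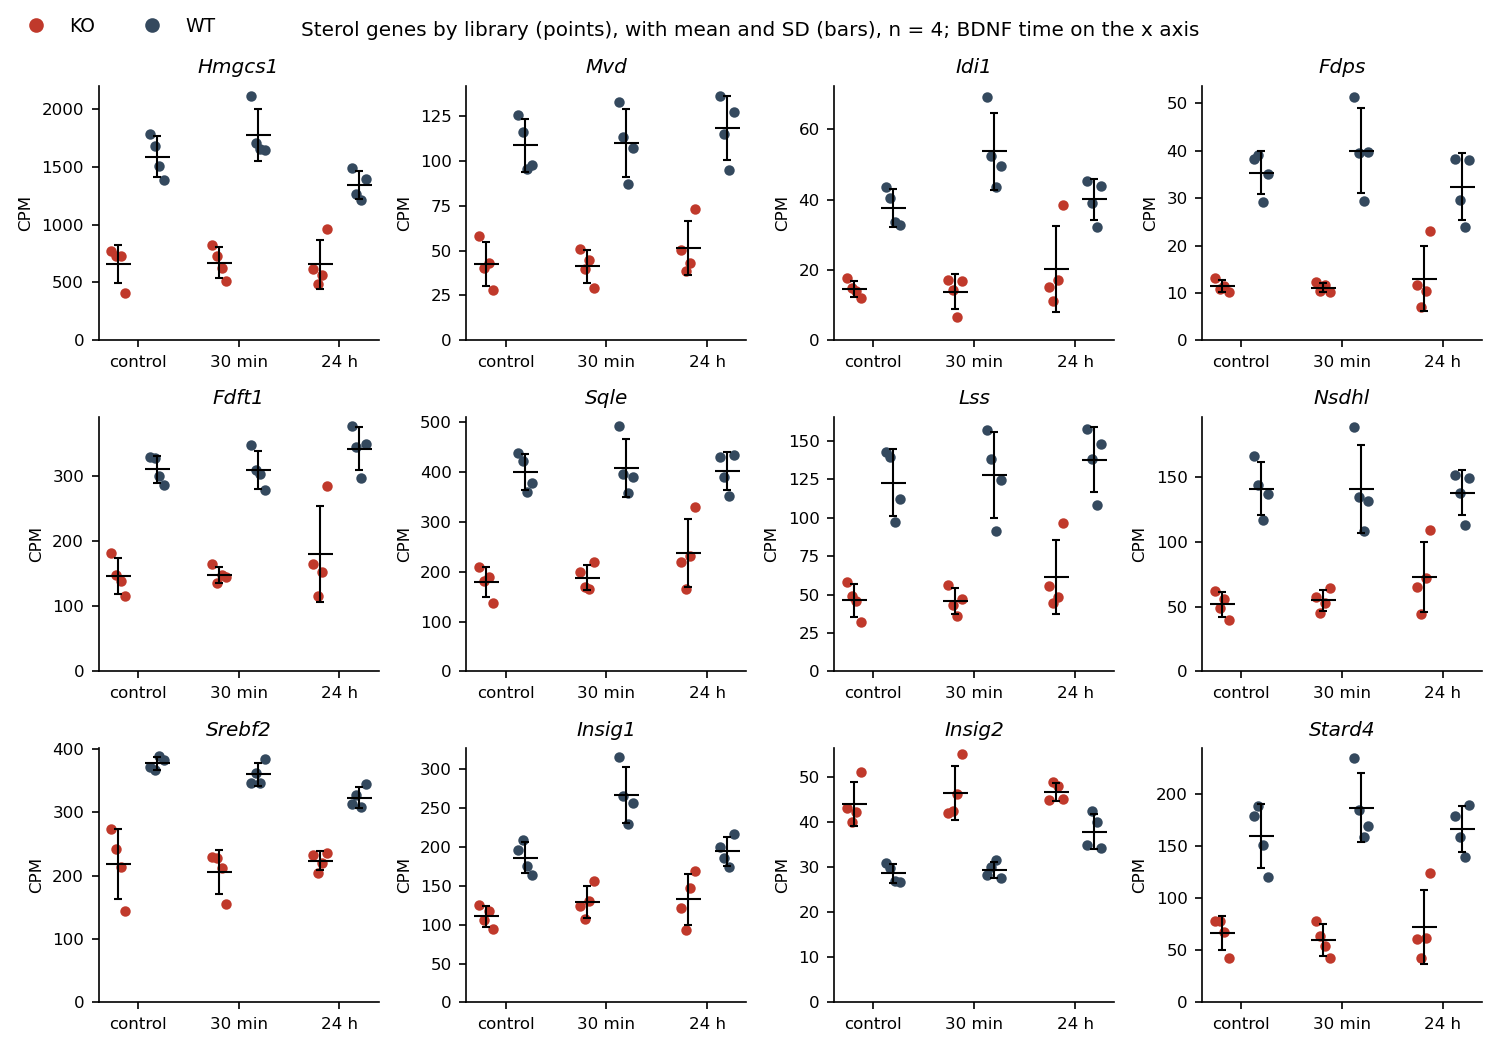
CPM of 12 sterol genes in each library (points; KO red, WT dark blue), with the mean and SD of the 4 libraries of a group (bars), in control neurons and after BDNF for 30 min and 24 h. For 10 of the 12 genes all 4 KO points lie below all 4 WT points in control, at 30 min and at 24 h. The 12 are among the genes given by library, which were picked by the largest fold changes of their role. Taken singly, these conditions showed such a gap in 19, 19 and 17 of the 31 sterol genes. Over all genes tested the shares were 13.3%, 13.4% and 9.14%. Insig2 is higher in KO, and the 24 h point of Idi1 at 38.4 CPM falls among the WT points.

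Of the 11 enzymes that take squalene to cholesterol, 10 were lower in KO control (median log2 fold change -0.94), and Ebp, the sterol isomerase, did not pass the test (-0.10 ± 0.19, 95% interval -0.49 to 0.30). Fdft1 (chr14:63145150-63179578), squalene synthase, is the first step committed to sterol. Fdft1 in control neurons measured 182, 148, 139 and 116 CPM in KO and 328, 327, 301 and 286 CPM in WT. Fdft1 at 30 min measured 166, 136, 148 and 144 CPM in KO and 348, 309.6, 302 and 278 CPM in WT. Fdft1 at 24 h measured 166, 115, 152 and 285 CPM in KO and 377, 344, 297 and 349.7 CPM in WT. KO lay below WT throughout, with the library labelled KO 24 h replicate 4 closest to WT. Fdft1 was lower, with a log2 fold change of -1.09 ± 0.18 (adjusted p = 0.000163) in control, -1.06 ± 0.18 (adjusted p = 0.000149) at 30 min and -0.93 ± 0.18 (adjusted p = 0.00168) at 24 h. Its exons share 18.3% of their bases with Ctsb on the opposite strand, and Ctsb was higher in KO control by 0.42 on the log2 scale.

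Sqle (chr15:59315077-59331192), squalene epoxidase, brings in the oxygen of the sterol. Sqle in control neurons measured 208, 181, 189 and 138 CPM in KO and 438, 421, 359.7 and 379 CPM in WT. Sqle at 30 min measured 199, 168, 165 and 218 CPM in KO and 492, 396, 357 and 389 CPM in WT. Sqle at 24 h measured 220.1, 166, 231 and 329.6 CPM in KO and 430.1, 389, 352 and 433 CPM in WT. No KO library reached the lowest WT library of its condition. The log2 fold change was -1.16 ± 0.16 (adjusted p = 2.7e-05) in control, -1.12 ± 0.16 (adjusted p = 2.44e-05) at 30 min and -0.76 ± 0.16 (adjusted p = 0.00306) at 24 h.

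Lss (chr10:76531588-76557138), lanosterol synthase, closes the rings, and its promoter above holds 1 CCAAT. Lss in control neurons measured 57.96, 49.1, 45.9 and 32.1 CPM in KO and 143, 139, 97.01 and 112 CPM in WT. Lss at 30 min measured 56.3, 43.5, 35.8 and 46.8 CPM in KO and 157, 138, 91.2 and 125 CPM in WT. Lss at 24 h measured 55.3, 44.5, 48.2 and 96.8 CPM in KO and 157, 138, 108 and 148 CPM in WT. The groups stood apart in every condition, at 24 h by 96.8 CPM in the highest KO library against 108.1 CPM in the lowest WT library. Lss was lower, with a log2 fold change of -1.41 ± 0.22 (adjusted p = 0.000102) in control, -1.48 ± 0.22 (adjusted p = 4.35e-05) at 30 min and -1.17 ± 0.22 (adjusted p = 0.00144) at 24 h, and of -1.49 ± 0.20 at 24 h without the library labelled KO 24 h replicate 4.

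Nsdhl (chrX:72918557-72958514) removes a carboxyl group from the sterol nucleus. Nsdhl in control neurons measured 62.4, 49.1, 56.02 and 39.9 CPM in KO and 167, 144, 117 and 137 CPM in WT. Nsdhl at 30 min measured 57.7, 44.8, 52.95 and 64.3 CPM in KO and 189, 135, 109 and 131 CPM in WT. Nsdhl at 24 h measured 64.9, 44.7, 71.8 and 109 CPM in KO and 152, 138, 114 and 149 CPM in WT. All KO libraries were below all WT libraries in each condition. Nsdhl differed by a log2 fold change of -1.44 ± 0.21 (adjusted p = 3.86e-05) in control, -1.36 ± 0.21 (adjusted p = 4.85e-05) at 30 min and -0.93 ± 0.21 (adjusted p = 0.00446) at 24 h.

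The other lower enzymes after squalene differed by less than these 4 in control. Dhcr7, which makes cholesterol in the last step of its branch, had a log2 fold change of -1.03 ± 0.14 (adjusted p = 2.21e-05). Tm7sf2, a sterol reductase, was lower, with a log2 fold change of -0.94 ± 0.17 (adjusted p = 0.0004). Msmo1, a methylsterol oxidase, was lower, with a log2 fold change of -0.80 ± 0.21 (adjusted p = 0.00779). Cyp51, the lanosterol demethylase, was lower, at -0.68 ± 0.15 (adjusted p = 0.00216) with 263 ± 10.7 CPM in KO control and 421 ± 43.2 CPM in WT control (SD, n = 4 each). Sc5d, a sterol desaturase, was lower, with a log2 fold change of -0.53 ± 0.12 (adjusted p = 0.00347), and Hsd17b7, a ketosteroid reductase, at -0.42 ± 0.14 (adjusted p = 0.0345), where the KO and WT libraries of Hsd17b7 overlapped. The Hsd17b7 call was lost without KO control replicate 4 or replicate 2, or without WT control replicate 1, 2 or 3.

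The genes of SREBP control moved in both directions: Srebf2, Srebf1 and Insig1 were lower in KO control, Insig2 was higher and Scap did not pass the test. Srebf2 (chr15:82147181-82205379) encodes SREBP-2, which switches on the synthesis genes. Srebf2 in control neurons measured 273, 243, 213 and 144 CPM in KO and 371, 367, 389 and 383 CPM in WT. Srebf2 at 30 min measured 229, 228, 213 and 156 CPM in KO and 346, 362, 346 and 385 CPM in WT. Srebf2 at 24 h measured 233, 204, 220.2 and 236 CPM in KO and 312, 328, 308 and 345 CPM in WT. KO lay below WT in each condition, and replicate 4 was the lowest KO library in control and at 30 min. Srebf2 was lower, with a log2 fold change of -0.79 ± 0.14 (adjusted p = 0.000225) in control, -0.80 ± 0.14 (adjusted p = 0.000141) at 30 min and -0.53 ± 0.14 (adjusted p = 0.011) at 24 h. The 24 h call was lost without KO 24 h replicate 2, where the log2 fold change was -0.51.

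Srebf1 (chr11:60199089-60222581) encodes SREBP-1, better known for fatty acid synthesis, and its level was low. Srebf1 in control neurons measured 5.47, 7.2, 8.32 and 4.04 CPM in KO and 11.3, 10.4, 8.01 and 14.9 CPM in WT. Srebf1 at 30 min measured 4.98, 4.59, 9.37 and 4.43 CPM in KO and 9.45, 10.99, 8.56 and 12.6 CPM in WT. Srebf1 at 24 h measured 6.39, 7.49, 6.99 and 8.19 CPM in KO and 10.5, 11.8, 10.01 and 12.6 CPM in WT. The groups overlapped in control through KO replicate 3 and WT replicate 3, and at 30 min through KO replicate 3. They did not overlap at 24 h, where the test was nevertheless missed. Srebf1 passed at 24 h in 5 of 34 alternative analyses, over which the adjusted p ran from 0.00753 to 0.694. Srebf1 differed by a log2 fold change of -0.83 ± 0.23 (adjusted p = 0.0135) in control, -0.85 ± 0.23 (adjusted p = 0.00912) at 30 min and -0.63 ± 0.23 (adjusted p = 0.0728) at 24 h, and the control call was lost without WT control replicate 4.

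Insig1 (chr5:28071363-28078662) is both a brake on SREBP and a target of it. Insig1 in control neurons measured 125, 106, 117 and 94.8 CPM in KO and 196, 209, 175 and 164 CPM in WT. Insig1 at 30 min measured 124, 107, 129.7 and 156 CPM in KO and 316, 265, 229.7 and 256 CPM in WT. Insig1 at 24 h measured 121, 93.4, 147 and 169 CPM in KO and 199.7, 186, 174 and 217 CPM in WT. All 4 KO libraries lay below all 4 WT libraries in every condition. Insig1 was lower, with a log2 fold change of -0.75 ± 0.15 (adjusted p = 0.000874) in control, -1.05 ± 0.15 (adjusted p = 2.31e-05) at 30 min and -0.55 ± 0.15 (adjusted p = 0.0157) at 24 h. Without KO 24 h replicate 2 the 24 h value was -0.43 and the call was lost.

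Insig2 (chr1:121304353-121332589), the other retention protein, stood on the opposite side. Insig2 in control neurons measured 43.1, 39.9, 42.2 and 51.2 CPM in KO and 30.9, 29.8, 26.99 and 26.8 CPM in WT. Insig2 at 30 min measured 42, 42.5, 46.2 and 55.03 CPM in KO and 28.2, 30.1, 31.6 and 27.6 CPM in WT. Insig2 at 24 h measured 44.9, 48.9, 48.04 and 45.2 CPM in KO and 34.9, 42.4, 40.1 and 34.3 CPM in WT. Every KO library was above every WT library of its condition. Insig2 was higher by 0.62 ± 0.10 (adjusted p = 0.000118) in control, 0.66 ± 0.10 (adjusted p = 4.88e-05) at 30 min and 0.30 ± 0.10 (adjusted p = 0.0474) at 24 h, and the 24 h call was lost in 23 of 34 alternative analyses. Scap, the escort, averaged 78.3 ± 3.72 CPM in KO control and 75.6 ± 7.43 CPM in WT control, with 95% intervals of its log2 fold change of -0.13 to 0.23 in control, -0.10 to 0.26 at 30 min and -0.09 to 0.27 at 24 h.

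Among the 7 genes of uptake, transport and export, Stard4 and Mylip were lower in KO control and Nr1h2 was higher. Stard4 (chr18:33199355-33213862) encodes a carrier of sterol between membranes. Stard4 in control neurons measured 78.6, 78.01, 68.1 and 43.1 CPM in KO and 179.5, 189, 151 and 120.5 CPM in WT. Stard4 at 30 min measured 78.7, 64.2, 54.5 and 42.8 CPM in KO and 235, 185, 159 and 170.0 CPM in WT. Stard4 at 24 h measured 60.7, 42.9, 61.8 and 125 CPM in KO and 179, 159, 139.7 and 189.8 CPM in WT. The groups stood apart in every condition. Stard4 was lower, with a log2 fold change of -1.25 ± 0.25 (adjusted p = 0.00102) in control, -1.64 ± 0.26 (adjusted p = 6.12e-05) at 30 min and -1.20 ± 0.25 (adjusted p = 0.0031) at 24 h.

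Mylip (chr13:45389742-45412022) encodes a ubiquitin ligase, itself a liver X receptor target, that marks lipoprotein receptors for breakdown. Mylip in control neurons measured 9.34, 6.84, 6.28 and 5.58 CPM in KO and 10.97, 12, 11.3 and 10.2 CPM in WT. Mylip at 30 min measured 9.65, 8.54, 8.65 and 6.6 CPM in KO and 13.4, 12.8, 11.4 and 8.59 CPM in WT. Mylip at 24 h measured 8.19, 8.17, 4.74 and 10.1 CPM in KO and 11.02, 11.05, 12.7 and 12.7 CPM in WT. KO was below WT in control and at 24 h, and the groups overlapped at 30 min. Mylip differed by a log2 fold change of -0.66 ± 0.19 (adjusted p = 0.0164) in control, -0.46 ± 0.19 (adjusted p = 0.0736) at 30 min and -0.60 ± 0.19 (adjusted p = 0.0392) at 24 h. The control call was lost without KO control replicate 4, and the 24 h call was lost in 10 of 34 alternative analyses. At 30 min Mylip passed in 3 of the 34, over which the adjusted p ran from 0.0327 to 0.482.

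Nr1h2 (chr7:44549616-44553951) encodes the liver X receptor beta. Nr1h2 in control neurons measured 27.5, 27.6, 28.3 and 30.8 CPM in KO and 18.01, 18.2, 22.4 and 18.7 CPM in WT. Nr1h2 at 30 min measured 23.8, 25.5, 32.6 and 21.5 CPM in KO and 13.96, 18.6, 21.1 and 19.02 CPM in WT. Nr1h2 at 24 h measured 23.3, 23.9, 27.5 and 20.8 CPM in KO and 15.03, 17.1, 18.1 and 18.1 CPM in WT. Every KO library was above every WT library of its condition. Nr1h2 was higher by 0.56 ± 0.13 (adjusted p = 0.00348) in control, 0.51 ± 0.13 (adjusted p = 0.00606) at 30 min and 0.48 ± 0.13 (adjusted p = 0.0169) at 24 h. The 24 h call was lost without WT 24 h replicate 1 (0.42) or KO 24 h replicate 3 (0.40), and the 30 min call with the compared groups fitted alone (0.50).

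The exporters Abca1 and Abcg1, both known targets of liver X receptors, did not pass the test between genotypes, and neither did Npc1, which moves cholesterol out of lysosomes. In control neurons the 95% intervals of the log2 fold change were -0.49 to 0.66 for Abca1, -0.39 to 0.37 for Abcg1 and -0.29 to 0.24 for Npc1. Npc2, the soluble partner of Npc1, averaged 74.5 ± 12.98 CPM in KO control and 59.1 ± 3.46 CPM in WT control, a log2 fold change of 0.33 ± 0.12 (adjusted p = 0.0613), and it passed at 30 min at 0.34 ± 0.12 (adjusted p = 0.0425). That 30 min call was lost in 17 of 34 alternative analyses. In control Npc2 passed in 4 of the 34, over which the adjusted p ran from 0.0181 to 0.483.

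**Figure D3:**
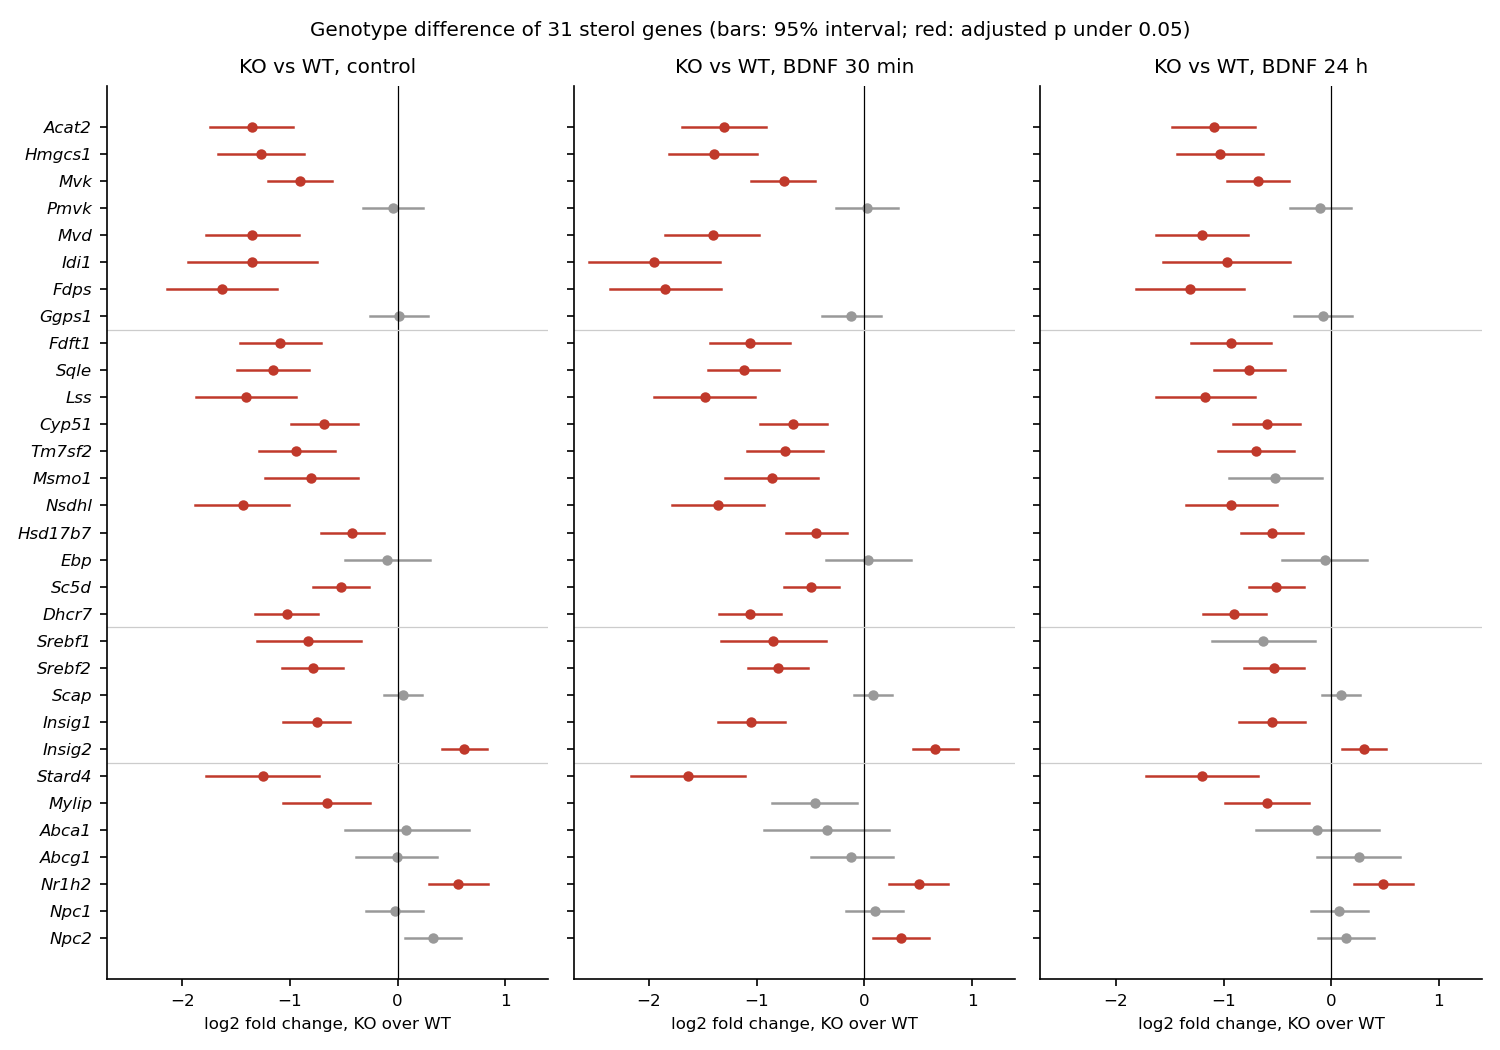
Log2 fold change of the 31 sterol genes, KO over WT (points) with 95% intervals (bars), in control neurons, after BDNF for 30 min and after BDNF for 24 h; red marks an adjusted p under 0.05. The synthesis enzymes other than Pmvk, Ggps1 and Ebp lie left of 0 in each panel, and Insig2 and Nr1h2 lie right of it.

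After BDNF for 30 min, 20 of the 31 genes were lower in KO than in WT (64.5%, where 13.8% of all genes were lower) and 3 were higher (9.68%, where 14.6% were higher). Their median log2 fold change was -0.75, against 0.015 over all genes, and in 19 all KO libraries lay below all WT libraries, as did 13.4% of all genes. After BDNF for 24 h, 19 were lower (61.3%, where 6.16% of all genes were lower) and 2 were higher (6.45%, where 7.09% were higher). The median was -0.60, against 0.002 over all genes, and 17 had all KO libraries below all WT libraries, as did 9.14% of all genes. Astrocyte markers summed to 263.4 to 339.8 CPM in KO and 560.6 to 720.9 CPM in WT at 30 min, with 7 of 10 lower. At 24 h they summed to 243.1, 247.1, 286.4 and 519 CPM in KO and 539.6 to 612.4 CPM in WT, with 1 of 10 lower (Slc1a2). Their median log2 fold change was -1.55 at 30 min and -0.83 at 24 h, with 9 of 10 values below 0 at each time. The oligodendrocyte lineage markers at 24 h summed to 46.24 to 68.78 CPM in KO and 69.83 to 97.47 CPM in WT, and the part of either list in the sterol result was not tested.

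Without the library labelled KO 24 h replicate 4, the 24 h log2 fold changes of the other genes given by library were -1.43 ± 0.21 for Mvd, -1.25 ± 0.14 for Fdft1, -0.97 ± 0.15 for Sqle and -1.20 ± 0.19 for Nsdhl. They were -0.57 ± 0.15 for Srebf2, -0.70 ± 0.26 for Srebf1, -0.70 ± 0.15 for Insig1 and 0.31 ± 0.11 for Insig2. They were -1.60 ± 0.22 for Stard4, -0.75 ± 0.20 for Mylip and 0.54 ± 0.14 for Nr1h2. Directions were the same as with all libraries in these 11 genes.

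The 19 enzymes were also averaged in each library, as the mean log2 level relative to the WT control mean. That mean was -0.72, -0.96, -0.87 and -1.16 in KO control and 0.13, 0.10, -0.14 and -0.10 in WT control. At 30 min it was -0.76, -1.02, -0.99 and -0.78 in KO and 0.29, 0.09, -0.10 and 0.00 in WT. At 24 h it was -0.78, -1.16, -0.77 and -0.20 in KO and 0.19, 0.04, -0.19 and 0.17 in WT. The library labelled KO 24 h replicate 4 thus stood next to the lowest WT library, and its astrocyte marker sum of 519 CPM and its Hist2h2be level also stood between the genotypes. Without it, 20 sterol genes were lower and 2 were higher at 24 h, with a median log2 fold change of -0.71, where 9.34% of all genes were lower and 9.07% were higher. Msmo1, which missed the test at 24 h with that library at -0.52 ± 0.21 (adjusted p = 0.0998), passed without it at -0.71 ± 0.21 (adjusted p = 0.0187). Its adjusted p ran from 0.00157 to 0.75 over the 34 alternative analyses.

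The library descriptions are written in 2 styles with sample numbers of their own, 1 covering WT replicates 1 and 2 and KO replicate 1, the other covering the rest. In the first style the enzymes had a median KO minus WT difference of -0.85 in control, -1.01 at 30 min and -0.89 at 24 h on the log2 scale, with 19, 18 and 19 of 19 lower, from 1 KO and 2 WT cultures. In the second style the median was -1.07, -0.94 and -0.74, with 16, 17 and 17 of 19 lower, from 3 KO and 2 WT cultures. The 24 h values of the second style include the library labelled KO 24 h replicate 4. The first style holds 1 KO library a condition and gives values with no test. A fit on the second style alone called 13 sterol genes in control (12 lower), 15 at 30 min (14 lower) and 0 at 24 h, where it called 599, 957 and 11 genes in all.

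Few of the sterol genes passed the test after BDNF. With edgeR, 0 of 31 genes were called at 30 min in KO, where 0.125% of all genes were called, and 0 of 31 in WT, where 0.37% were called. At an unadjusted p under 0.05 the count was 0 in KO and 1 in WT, and DESeq2 also called 0 in each. The 1 gene in WT was Insig1. Insig1 in WT neurons at 30 min measured 316, 265, 229.7 and 256 CPM after BDNF and 196, 209, 175 and 164 CPM in control, so all 4 treated libraries lay above all 4 control libraries. Insig1 in KO neurons at 30 min measured 124, 107, 129.7 and 156 CPM after BDNF and 125, 106, 117 and 94.8 CPM in control, and these groups overlapped. The log2 fold change, BDNF over control, was 0.22 ± 0.15 (adjusted p = 1) in KO and 0.52 ± 0.15 (adjusted p = 0.356) in WT. The difference between the genotypes was -0.30 ± 0.21 (adjusted p = 1), with a 95% interval of -0.73 to 0.13.

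After BDNF for 24 h, 2 sterol genes were called in KO and 4 in WT. In KO, 1 was lower (3.23%, where 2.7% of all genes were lower) and 1 was higher (3.23%, where 2.91% were higher). In WT, 2 were lower (6.45%, where 9.13% of all genes were lower) and 2 were higher (6.45%, where 9.55% were higher), so these shares lie near the background. With culture as a block, 4 genes were called in KO and 7 in WT, and more of all genes were called as well. In KO 2 of 31 were lower and 2 higher, where 8.59% of all genes were lower and 8.3% were higher. In WT 3 of 31 were lower and 4 higher, where 15.7% of all genes were lower and 15.9% were higher. In KO this block, here and below, keeps the library labelled KO 24 h replicate 4 in its coded culture. The Xist and Ddx3y levels of that library go against the code. The KO and WT responses share no library, but each shares its control libraries with the 30 min response.

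The largest of these changes was that of Abcg1 (chr17:31057675-31117988), which exports sterol to lipoproteins. Abcg1 in KO neurons at 24 h measured 13.5, 14.9, 11.8 and 10.7 CPM after BDNF and 18.8, 27.6, 21.7 and 18.96 CPM in control. Abcg1 in WT neurons at 24 h measured 11.3, 8.37, 9.64 and 13.4 CPM after BDNF and 23.6, 20.6, 19.7 and 23.8 CPM in control. Abcg1 at 30 min measured 23, 27.4, 16.4 and 14.01 CPM in KO and 22.6, 21.5, 18.1 and 25.9 CPM in WT. In both genotypes all 4 of the 24 h libraries lay below all 4 control libraries, while the 30 min libraries overlapped with control. Abcg1 was lower at 24 h, with log2 fold changes of -0.77 ± 0.19 (adjusted p = 0.0155) in KO and -1.04 ± 0.19 (adjusted p = 0.000405) in WT. The KO call was lost without KO control replicate 2 or KO 24 h replicate 3, where the log2 fold change was -0.63 and -0.74.

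Sc5d, the desaturase, was higher at 24 h by 0.43 ± 0.12 (adjusted p = 0.043) in KO and 0.41 ± 0.12 (adjusted p = 0.0242) in WT. In KO it was 0.32 ± 0.12 (adjusted p = 0.138) without the library labelled KO 24 h replicate 4, and the call was lost in 18 of 34 alternative analyses, over which the adjusted p ran from 0.0116 to 0.31. In WT the call was lost without WT control replicate 3, WT 24 h replicate 1 or WT 24 h replicate 4. Scap was lower in WT, at -0.31 ± 0.09 (adjusted p = 0.014), a call lost without WT control replicate 3 or WT 24 h replicate 1, and its value in KO was -0.27 ± 0.09 (adjusted p = 0.0696). In KO, Scap passed with culture as a block (-0.27 ± 0.07, adjusted p = 0.00794) and with DESeq2 (adjusted p = 0.0393), over a range of 0.00794 to 0.445 in the 34 alternative analyses. Insig2 was higher in WT by 0.41 ± 0.10 (adjusted p = 0.00585), and its value in KO was 0.09 ± 0.10 (adjusted p = 0.716). Npc1 missed the test in both genotypes at 0.42 ± 0.13 (adjusted p = 0.0581) in KO and 0.32 ± 0.13 (adjusted p = 0.0858) in WT, and it passed in both with culture as a block (0.41 ± 0.11, adjusted p = 0.0135 in KO and 0.32 ± 0.11, adjusted p = 0.0309 in WT). Over the 34 alternative analyses the adjusted p of Npc1 ran from 0.00531 to 0.493 in KO and 0.00233 to 0.672 in WT.

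**Figure D4:**
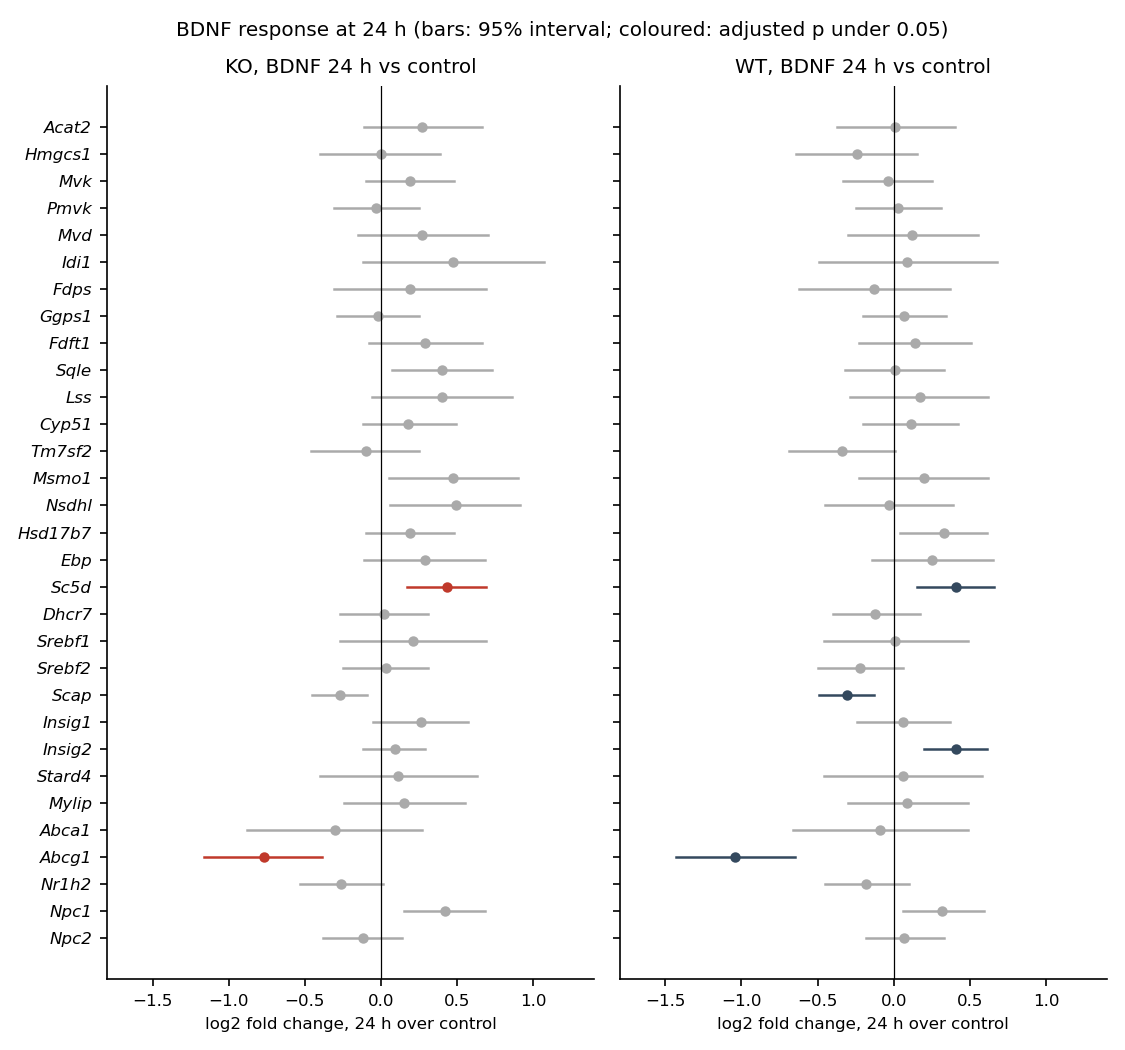
Log2 fold change of the 31 sterol genes after BDNF for 24 h over control (points) with 95% intervals (bars), in KO (left) and WT (right); colour marks an adjusted p under 0.05. Abcg1 lies left of 0 and Sc5d right of 0 in both panels, and the intervals of most enzymes include 0.

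Over the 19 synthesis enzymes the median log2 fold change after BDNF for 24 h was taken in each genotype. In KO the median was 0.27 at 24 h with all libraries, against -0.026 over all genes, and 15 of 19 values were above 0. Without the library labelled KO 24 h replicate 4 the KO median was -0.02 and 9 of 19 values were above 0. In WT the median was 0.07, against -0.010 over all genes, and 13 of 19 values were above 0. Without all 3 libraries of that culture and KO 30 min replicate 3, which had the fewest genes detected (15323), the KO median was -0.04, and Hmgcs1 was then lower at 24 h in KO, at -0.41 ± 0.11 (adjusted p = 0.0263), against -0.00 ± 0.19 with all libraries. The adjusted p of Hmgcs1 in that comparison ran from 0.0263 to 1 over the 34 alternative analyses.

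The responses to BDNF were also compared between the genotypes. With edgeR, 0 of the 31 genes differed in the 30 min response, where 0.0477% of all genes did, and 0 in the 24 h response, where 0.0358% did. At an unadjusted p under 0.05 the counts were 0 at 30 min and 1 at 24 h, and DESeq2 called 0 at both times. The 1 gene was Insig2, with a difference, KO minus WT, of -0.32 ± 0.14 (adjusted p = 0.847). Its 95% interval was -0.61 to -0.03. Over the 19 enzymes the median difference at 24 h was 0.23 with all libraries, 16 of 19 being above 0, and -0.07 without the library labelled KO 24 h replicate 4, with 5 of 19 above 0. Intervals of single genes were wide, for example -0.32 to 0.80 for Hmgcs1 and -0.38 to 1.02 for Fdps at 24 h.

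Genes around the pathway, also listed with earlier results of these data known, were set beside it. Of 16 genes of fatty acid synthesis, which SREBP-1 is known to switch on, 9 were lower in KO control and 0 were higher, where 10.1% of all genes were lower and 11.3% were higher, and their median log2 fold change was -0.56. Scd1, a fatty acid desaturase, was lower, at -2.20 ± 0.31, as were Fads2 at -1.43 ± 0.19, Scd2 at -1.30 ± 0.16 and Me1, malic enzyme, at -1.22 ± 0.18. At 30 min 9 of the 16 were lower (13.8% of all genes) and at 24 h 7 were (6.16% of all genes), with 0 higher at either time, and Scd1 differed by -2.40 ± 0.32 and -1.55 ± 0.31. Their summed level was 1375 to 2091 CPM in KO control and 3100 to 3674 CPM in WT control.

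The calls of the other 3 lists in KO control are set beside the same 10.1% lower and 11.3% higher over all genes. Of 13 genes of dolichol, ubiquinone and prenylation, 2 were higher in KO control and 0 were lower: Rabggtb, a subunit of an enzyme that prenylates Rab proteins, at 0.56 ± 0.19 and Zmpste24, a protease of prenylated proteins, at 0.31 ± 0.11. Of 9 genes of SREBP processing and retention, Faf2 was higher at 0.28 ± 0.07, while Erlin2 at -0.37 ± 0.10 and Mbtps1, a protease that cuts SREBP, at -0.27 ± 0.10 were lower. Of 31 tested genes of other sterol transport, esterification and turnover, Nceh1, a cholesteryl ester hydrolase, was higher at 0.60 ± 0.11 and 0 were lower. The medians of these 3 lists in KO control over WT control were 0.19, 0.05 and 0.06, against 0.031 over all genes. At 30 min 14.6% of all genes were higher and 13.8% were lower. The list of dolichol, ubiquinone and prenylation then had 3 higher and 0 lower genes, that of SREBP processing 1 and 1, and that of other sterol transport 3 and 0. At 24 h these lists had 2 higher and 0 lower, 0 higher and 1 lower, and 1 higher and 0 lower genes. Over all genes 7.09% were higher and 6.16% were lower at 24 h.

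**Figure D5:**
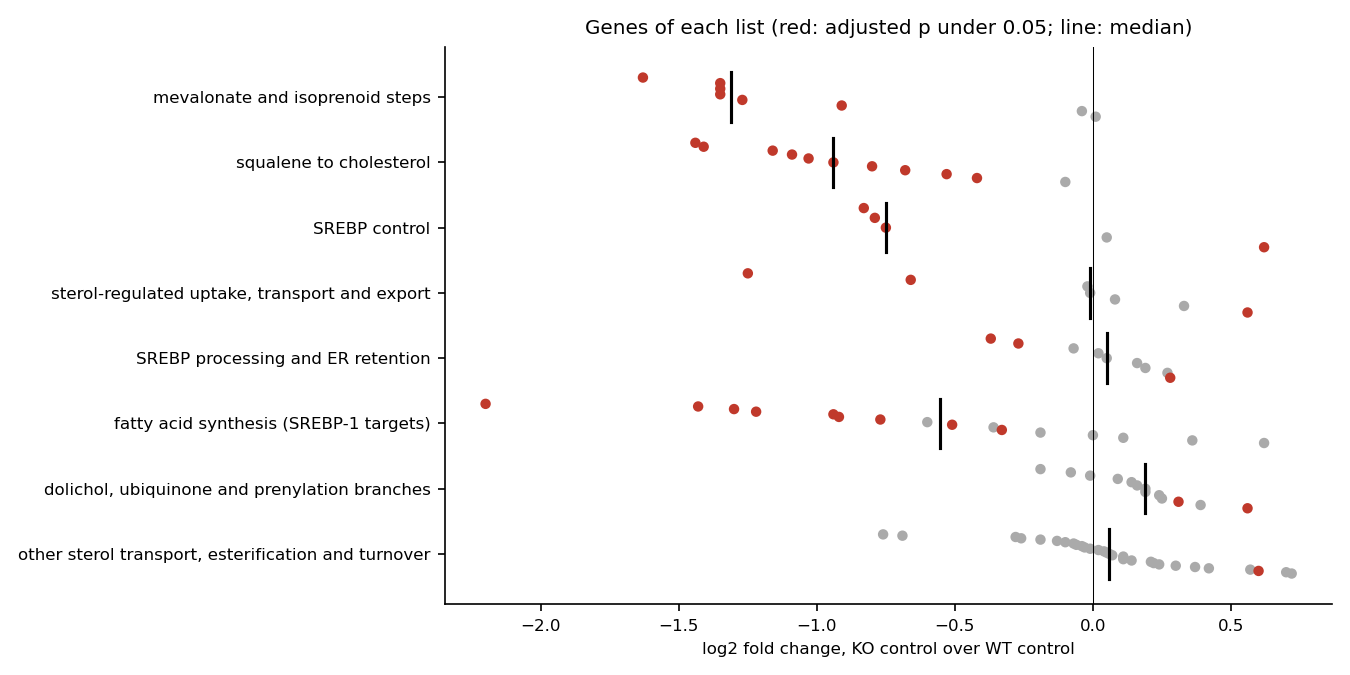
Log2 fold change, KO control over WT control, of every tested gene (points) in the 4 sterol lists and the 4 lists around them; red marks an adjusted p under 0.05 and the line marks the median of the list. The medians of mevalonate, squalene, SREBP control and fatty acid genes lie left of 0, from -1.31 to -0.56, and those of the other 4 lists lie between -0.01 and 0.19.

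After BDNF for 24 h, 3 of the 31 tested genes of other sterol transport, esterification and turnover were higher in KO and 1 was lower, where 2.91% of all genes were higher and 2.7% were lower. In WT 5 were higher and 3 were lower, where 9.55% of all genes were higher and 9.13% were lower. Soat1, which esterifies cholesterol, was higher by 0.54 ± 0.14 in KO and 0.52 ± 0.14 in WT. Osbp, a sterol carrier, was higher by 0.37 ± 0.10 in KO and 0.47 ± 0.10 in WT, and Gramd1b, another carrier, by 0.57 ± 0.15 in KO and 0.61 ± 0.15 in WT. Rxrb, a partner of the liver X receptors, was lower, at -0.30 ± 0.08 in KO and -0.38 ± 0.08 in WT. Nceh1 was higher in WT by 0.70 ± 0.11. Of the 9 genes of SREBP processing, 0 were called in KO and 4 in WT, beside the lower shares of all genes called in KO than in WT given above. In WT Erlin1 was higher by 0.51 ± 0.12, Syvn1 by 0.37 ± 0.12 and Faf2 by 0.23 ± 0.07, and Mbtps1 had a log2 fold change of -0.42 ± 0.10. The differences between the genotypes in the responses of Nceh1, Erlin1, Syvn1, Faf2 and Mbtps1 had adjusted p-values of 0.866 to 1.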

How the data were processed

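Values are raw counts per gene that the authors deposited for 24 libraries, without normalisation. Per the labels' protocols, RNA was isolated with a Zymo Quick-RNA Miniprep Plus kit and polyA libraries were made with a TruSeq Stranded mRNA kit. The submitters' processing notes name the genome build mm10, the aligner STAR 2.7.9a, edgeR 3.40.2, limma 3.54.2 and DESeq2 1.38.3. Which program counted the reads, with which strand setting and which gene models, was not given in the sources used here, so reads of overlapping or near-identical genes are uncertain. Of 45792 genes, 45229 matched GENCODE M21 (98.8%), which gave coordinates and exon lengths. All columns were mapped to samples by their labels, with 0 columns left over.

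Genes were filtered with filterByExpr (minimum count 10, minimum total 15), which left 16777. The test ran in R 4.3.3 with edgeR 4.0.16. One quasi-likelihood fit held all 24 libraries and 6 groups, with TMM scaling and 18 residual degrees of freedom, and biological variation was 23.5% (coefficient). Adjusted p-values are Benjamini-Hochberg values over all genes tested, with a threshold of 0.05. Fold changes are given as log2 ± SE, CPM are per TMM-scaled library, and library means use log2 CPM with a prior count of 2. DESeq2 1.42.0 was an alternative, and scripts were tested on simulated data.

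The control, 30 min and 24 h libraries of 1 culture deviated together: 22 of 24 pairs had a correlation over 0.1 (0.0464 to 0.462), the pairing coming from the culture codes in the labels. Equal replicate numbers across genotypes did not (0 of 12 pairs). The main fit held group means only, so its p-values treat all 24 libraries as independent and ignore the pairing by culture. By the codes, the KO over WT comparisons in control, at 30 min and at 24 h draw on the same cultures. They are therefore not independent of each other. The highest correlation between libraries was 0.99199, and no library was counted as a duplicate.

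Members and lists were chosen with earlier results of these data known. Values of every library are given for members past the threshold in at least 1 comparison with a mean of at least 1 CPM, the largest absolute log2 fold changes within a role first, up to 16 members. Genes of the related lists are named where past the threshold, up to 4 per list and comparison. Some sterol genes are not analysed here.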

Additional observations from a re-analysis of the deposited data

Results flagged for a closer look

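Among 186 groups of 4 libraries (31 genes in 6 groups), 8 held 1 library far from the other 3 (4.3%), and chance gives about 1 in 20. Hmgcs1 had 412.8 CPM in KO control replicate 4, where the other 3 libraries had 727.2 to 768.2 CPM. Hmgcs1 had 2111.0 CPM in WT 30 min replicate 1, where the others had 1642.8 to 1705.5 CPM. Msmo1 had 325.9 CPM in that same library, where the others had 245.4 to 257.9 CPM. Srebf1 had 9.375 CPM in KO 30 min replicate 3, where the others had 4.427 to 4.981 CPM. Ggps1 had 64.8 CPM in the library labelled KO 24 h replicate 4, where the others had 50.34 to 52.09 CPM, and 61.56 CPM in WT control replicate 2, where the others had 52.49 to 53.52 CPM. Nr1h2 had 22.4 CPM in WT control replicate 3, where the others had 18.01 to 18.68 CPM. Npc2 had 69.13 CPM in WT 24 h replicate 4, where the others had 59.55 to 60.21 CPM.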

How the results depend on the processing

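The 73 sterol gene results past the threshold were recomputed under 34 alternatives each, 2482 values in all. Of these, 2343 kept their direction and stayed past the threshold, 139 kept their direction and missed it, and 0 reversed. The second numbering style alone holds 3 KO and 2 WT cultures and took most calls away. The cause of those losses and of the other moves below was not tested.

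Genes past the threshold for KO over WT, which had been 3592 in control, 4760 at 30 min and 2223 at 24 h, were 599, 957 and 11 in the second style alone, and sterol genes were 13, 15 and 0, where 23, 23 and 21 had been called. At 30 min 2688 genes passed with the compared groups fitted alone, and at 24 h 5435 passed leaving out all of KO culture 4 plus replicate 3 of KO 30 min.

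For the 24 h response in KO (942 genes, 2 sterol genes) the counts were 2834 and 4 with culture as a replicate block, 1464 and 4 with DESeq2, and 19 and 0 in the second style. They were 552 genes with the compared groups alone, 1641 genes leaving out all of KO culture 4 plus replicate 3 of KO 30 min, and 1 sterol gene with no filter. For the 24 h response in WT (3133 genes, 4 sterol genes) they were 5298 and 7 with the block, 4945 and 7 with the compared groups alone, 237 and 0 in the second style, and 5564 and 7 leaving out all of KO culture 4 plus replicate 3 of KO 30 min. At 30 min, KO (21 genes) had 10 in the second style, and WT (62 genes) had 98 with the block and 25 in the second style.

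Differences in response between the genotypes numbered 8 genes at 30 min. They were 30 with the block, 23 with DESeq2, 15 with no filter, 4 with the compared groups alone and 0 in the second style. The 6 genes at 24 h were 299, 56, 12 and 0 with the block, DESeq2, no filter and the second style, and 111 leaving out all of KO culture 4 plus replicate 3 of KO 30 min. No sterol gene was among the calls of these differences in any alternative.

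Leaving out 1 library at a time gave 2667 to 4193 genes for KO over WT in control, 3620 to 5174 at 30 min and 1216 to 3138 at 24 h, with 21 to 24, 21 to 24 and 15 to 22 sterol genes. The 24 h response gave 482 to 1251 genes and 0 to 3 sterol genes in KO, the 0 coming without KO control replicate 2 or KO 24 h replicate 3. In WT it gave 2311 to 3667 genes and 2 to 5 sterol genes, the 2 coming when replicate 1 of WT 24 h, or replicate 3 of WT control, was left out. The 30 min response gave 14 to 22 genes in KO and 55 to 67 in WT, and the differences gave 4 to 13 and 0 to 14. For KO over WT the block was the replicate number, which the check of pairing did not bear out, and it left the sterol counts within 1.5 times.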
